A study of Homo sapiens with 8 samples.

Results

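The 38 genes described here encode the glucose transporters, the enzymes of glycolysis, the enzymes that decide the fate of pyruvate, and the core enzymes of glycogen. They were taken as a fixed list of gene symbols from a table of 25435 genes, all 38 were found in it, and all 38 passed the count filter that left 13213 genes for testing. The cells were HGC27, a human gastric cancer cell line in established use that lacks p53 according to its labels. They carried an overexpressed p53 protein with the substitution R175H, R248Q or R273H, or GFP, and each of these 4 groups had 2 libraries of mRNA sequencing. The series title speaks of a knockout and knockdown of p53, whereas every sample label names overexpression. The labels do not say whether lines were single clones or pools, how the proteins were delivered, or whether the libraries of a group came from separate cultures. P-values here therefore measure only the spread between these libraries.

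Glycolysis splits glucose into pyruvate and yields ATP and NADH. Pyruvate is then reduced to lactate by lactate dehydrogenase, or enters mitochondria through its carrier and is oxidised by the pyruvate dehydrogenase complex, which the PDK kinases switch off and PDP1 switches back on. Several steps are served by isoenzymes from separate genes that differ in regulation and tissue. Many of these genes are textbook targets of the hypoxia-inducible factors, and glycogen is built from the same glucose phosphate that feeds glycolysis.

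Of the 38 genes, 21 were higher and 0 lower in R175H cells than in GFP cells (edgeR's quasi-likelihood test, Benjamini-Hochberg adjusted p below 0.05 over all genes tested). Over all genes tested in that comparison, 6.39% were called higher and 4.59% lower. The count of 0 lower genes was also 0 with DESeq2 and limma-voom, and 3 genes were lower at an unadjusted p below 0.05. The median log2 fold change was 0.26 for the 38 genes and 0.01 for all genes tested, and 31 of the 38 were above 0. In R248Q against GFP cells 1 gene was higher and 1 lower, where 4.88% and 1.44% of all genes were called. In R273H against GFP cells 0 were called in either direction, where 0.757% and 0.25% of all genes were called. At an unadjusted p below 0.05 edgeR gave 5 higher and 3 lower genes in R273H, and DESeq2 and limma-voom called 0. The 3 comparisons share the GFP libraries. In bulk RNA, more cells with a transcript and more transcript per cell cannot be told apart.

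**Figure D1:**
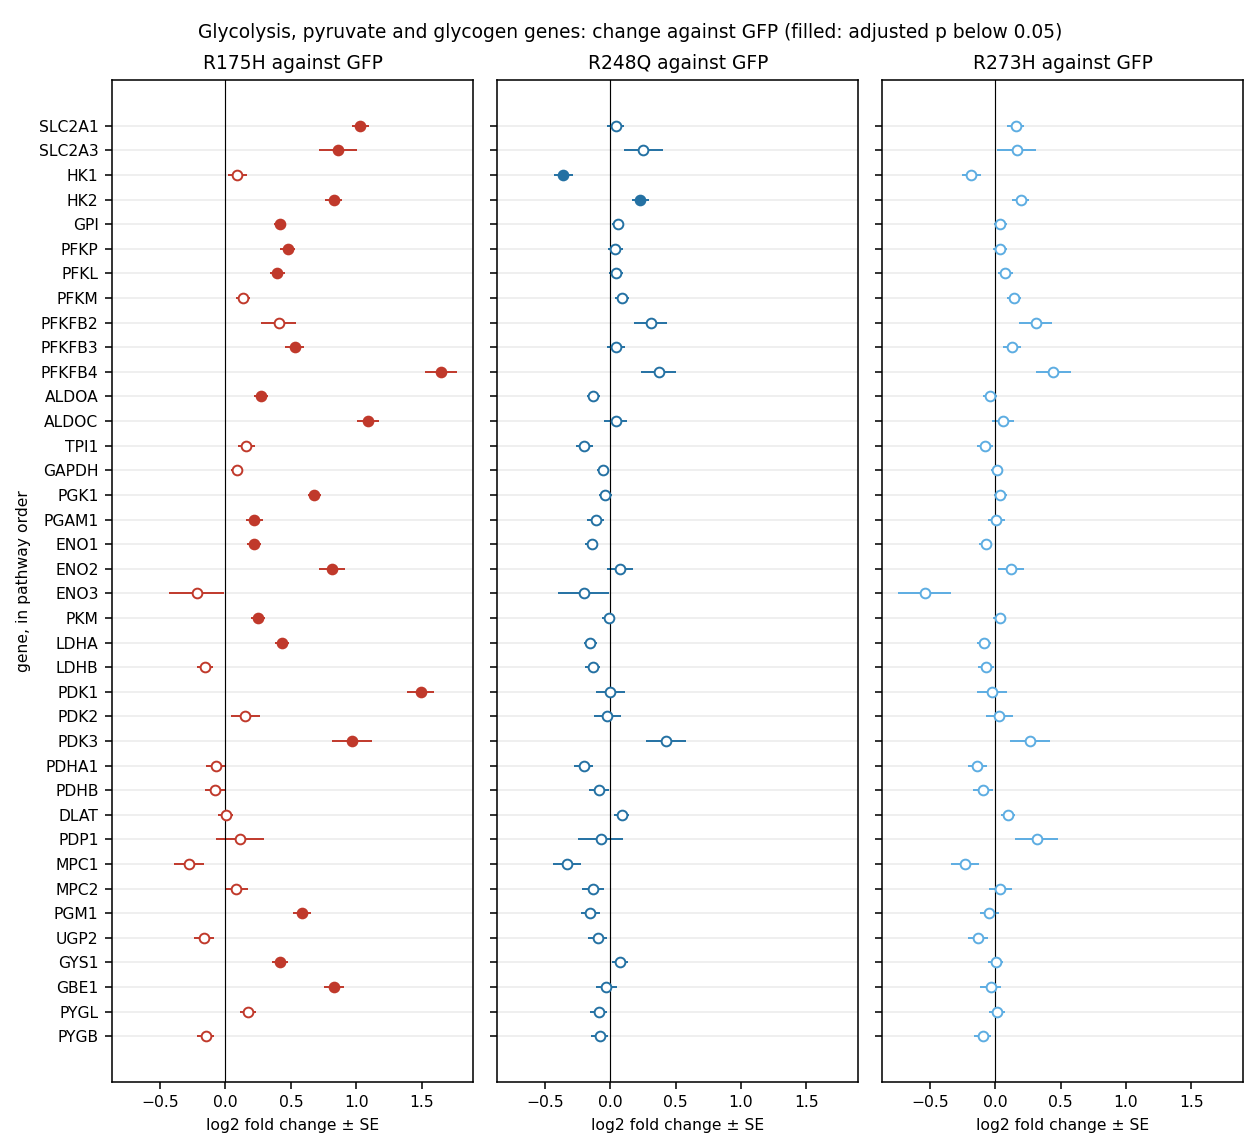
Log2 fold change of each of the 38 genes against GFP, with its SE, in R175H, R248Q and R273H cells from left to right, with 2 libraries per group. Filled points passed the adjusted p of 0.05: 21 genes in the R175H panel, HK1 and HK2 in the R248Q panel and 0 in the R273H panel.

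Library totals were 6800463 and 9017777 counts in R175H, 11659301 and 11599907 in R248Q, 11287251 and 11788035 in R273H, and 9769342 and 8928928 in GFP. Replicates were furthest apart in GFP: their chi-square per degree of freedom over genes was 1.21 to 1.6 in the mutants and 5.72 in GFP. In GFP replicate 1 genes with transcripts of up to 1974 bases had a median deviation from their mean log2 CPM of 0.107 and those of 3459 bases or more one of -0.142. In the other 7 libraries these medians stayed between -0.0483 and 0.0616. Of 8 epithelial and gastric markers in the table, 7 had at most 3 counts in every library and 2 had none, so these cells lacked the defining markers of gastric epithelium. The epithelial and gastric markers summed to 0.561 to 1.18 CPM (read counts scaled to the TMM-adjusted library total) in R175H. Their sums were 3.15 to 3.68 CPM in R248Q, 1.42 to 2.73 CPM in R273H and 1.33 to 1.75 CPM in GFP. KRT8, the 1 tested, was called higher in R248Q than in GFP. It was called lower in R175H than in R248Q and R273H, by log2 differences of -2.97 and -2.25, with 3 counts in each R175H library. The mesenchymal markers summed to 5955 to 6055 CPM in R175H and 5285 to 5323 CPM in GFP, nearly all of it VIM. Of the 4 tested, VIM was called higher and SPARC lower (log2 fold change -0.22) in R175H against GFP, and their median log2 difference was 0.05. Markers of liver and skeletal muscle, tissues that use some of the isoenzymes described here, summed to at most 0.561 and 0.768 CPM in any library. Neural markers, for the isoenzymes typical of brain, summed to 15.35 to 17.2 CPM in R175H and 17.4 to 19.4 CPM in GFP, and 0 of the 3 tested were called in R175H against GFP. The part of these differences in the results was not tested.

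Promoters are shown for 5 genes with a single start in RefSeq (GRCh38.p14), chosen after their values were seen: 4 that were higher in R175H and LDHB, which was not called. Each run holds the 250 bases before the start, read in the direction of the gene. Capitals mark ACGTG or GCGTG, the core letters of the sites that hypoxia-inducible factors bind, on either strand (CACGT or CACGC on the other strand), and CACGTG counts once on each strand.
PFKFB4, chr3:48556804-48557053, minus strand: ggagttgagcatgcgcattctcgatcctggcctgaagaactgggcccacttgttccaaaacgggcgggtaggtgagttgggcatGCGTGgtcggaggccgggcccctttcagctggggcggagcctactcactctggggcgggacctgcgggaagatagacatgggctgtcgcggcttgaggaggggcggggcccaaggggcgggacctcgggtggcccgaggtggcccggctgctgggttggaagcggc
ALDOC, chr17:28576896-28577145, minus strand: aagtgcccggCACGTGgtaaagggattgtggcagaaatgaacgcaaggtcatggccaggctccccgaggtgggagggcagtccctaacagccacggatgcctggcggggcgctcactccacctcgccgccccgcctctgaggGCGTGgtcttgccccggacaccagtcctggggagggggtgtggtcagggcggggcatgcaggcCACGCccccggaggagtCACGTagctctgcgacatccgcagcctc
SLC2A1, chr1:42958869-42959118, minus strand: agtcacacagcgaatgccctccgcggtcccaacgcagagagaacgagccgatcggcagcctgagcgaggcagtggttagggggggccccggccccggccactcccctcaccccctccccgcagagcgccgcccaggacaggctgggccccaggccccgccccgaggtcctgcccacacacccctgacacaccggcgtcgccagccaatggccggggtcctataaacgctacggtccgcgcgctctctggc
PGK1, chrX:78103998-78104247, plus strand: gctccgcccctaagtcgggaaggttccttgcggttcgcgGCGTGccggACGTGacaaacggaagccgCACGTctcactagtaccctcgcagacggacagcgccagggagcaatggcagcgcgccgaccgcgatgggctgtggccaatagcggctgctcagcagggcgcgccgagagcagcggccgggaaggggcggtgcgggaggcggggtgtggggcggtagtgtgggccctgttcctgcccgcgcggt
LDHB, chr12:21657843-21658092, minus strand: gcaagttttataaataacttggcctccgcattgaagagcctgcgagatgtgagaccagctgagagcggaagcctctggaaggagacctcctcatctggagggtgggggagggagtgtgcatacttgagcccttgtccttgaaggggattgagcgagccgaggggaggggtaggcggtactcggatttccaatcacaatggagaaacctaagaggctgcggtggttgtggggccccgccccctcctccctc
The motif occurred 5 times in the ALDOC window, 3 times in that of PGK1, once in that of PFKFB4 and not in those of SLC2A1 and LDHB. Of the 38 genes, 35 had a promoter in the RefSeq table, with 65 starts between them, and 55.4% of these windows held the motif, against 55.2% of the windows of all tested genes and 43.2% of all windows. Among the genes with a single start, 10 of 13 called higher in R175H and 6 of 8 not called held it (76.9% and 75.0%), and the share was 59.6% over all tested genes with a single start. A match is a run of letters and does not show that a factor bound there.

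Both glucose transporters rose in R175H. SLC2A1 (GLUT1), the main basal glucose carrier, had 188 and 187 CPM in R175H, 92.1 and 96.9 in R248Q, 103 and 102 in R273H, and 88.2 and 95.7 in GFP libraries. Its 2 R175H libraries stood well above the other 6, whose range spanned R248Q, R273H and GFP together, and it was 2.04-fold higher in R175H than in GFP. SLC2A3 (GLUT3), a high-affinity carrier typical of neurons, had 22.4 and 21.3 CPM in R175H against 10.8 and 13.3 CPM in GFP, a log2 fold change of 0.86 ± 0.15 (SE, adjusted p = 1.3e-03). Per kilobase of transcript, SLC2A1 made up 94.1% of the sum of the pair in R175H and 93.4% in GFP, while that sum was 2.03-fold higher in R175H.

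In upper glycolysis 4 of 6 genes rose in R175H. HK2, the inducible hexokinase that traps glucose as glucose phosphate, had 217 and 219 CPM in R175H, 147 and 141 in R248Q, 140.2 and 141 in R273H, and 115 and 131 in GFP. All 6 mutant libraries exceeded both GFP libraries, with R175H highest. HK1, the constitutive hexokinase, had 65.8 and 68.6 CPM in R175H and 62.3 and 64.2 CPM in GFP, with an adjusted p of 0.47. GPI, which converts glucose phosphate to fructose phosphate, was 0.42 ± 0.05 higher in R175H on the log2 scale. Of the phosphofructokinases, which commit sugar to glycolysis, the platelet type PFKP rose by 0.48 ± 0.06 and the liver type PFKL by 0.40 ± 0.06. The muscle type PFKM had 329 and 346 CPM in R175H and 304 and 310.3 CPM in GFP, overlapped with R248Q and R273H, and was not called (adjusted p = 0.11), though it was called higher with the length trend removed and without GFP replicate 2.

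The PFKFB enzymes make and remove the fructose bisphosphate that activates phosphofructokinase, and 2 of the 3 rose in R175H. PFKFB4 had 35.0 and 34.3 CPM in R175H, 13.3 and 15.2 in R248Q, 16.4 and 13.7 in R273H, and 11.5 and 10.5 in GFP. Its R175H libraries lay far above every other library, and the log2 fold change against GFP was 1.65 ± 0.12 (adjusted p = 5.7e-07), the largest of the 38. PFKFB3, the isoform best known for driving glycolysis in growing cells, had 99.5 and 101 CPM in R175H against 66.5 and 72.3 CPM in GFP. PFKFB2, the heart type, had 16.7 and 18.1 CPM in R175H and 12.6 and 13.6 CPM in GFP, and its log2 difference of 0.41 ± 0.13 missed the threshold with an adjusted p of 0.061, but passed it under 3 of 20 alternatives.

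Lower glycolysis had 7 of 10 genes higher in R175H, by log2 fold changes of 0.22 to 1.09. ALDOC, the brain-type aldolase, had 164 and 160.2 CPM in R175H, 78.7 and 77.7 in R248Q, 77.2 and 81.2 in R273H, and 84.4 and 67.5 in GFP. The R175H libraries stood apart from the other 6, by a log2 fold change of 1.09 ± 0.08 against GFP. ALDOA, the ubiquitous aldolase, rose by 0.27 ± 0.05, with 2198 and 2354 CPM in R175H against 1943 and 1831 CPM in GFP. PGK1, which makes the first ATP of the pathway, had 1188 and 1183 CPM in R175H, 738 and 703 in R248Q, 749 and 771 in R273H, and 750.4 and 730.3 in GFP. The 6 libraries without R175H lay within a narrow band, and the log2 fold change was 0.68 ± 0.05 (adjusted p = 5.3e-07).

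ENO2, the neuronal enolase, had 66.0 and 79.3 CPM in R175H against 39.7 and 43.6 CPM in GFP, a log2 fold change of 0.81 ± 0.10. ENO1, the common enolase, rose by 0.22 ± 0.05, PKM, the pyruvate kinase, by 0.25 ± 0.05 and PGAM1, the phosphoglycerate mutase, by 0.22 ± 0.07. ENO1, PKM, PGAM1 and ALDOA were the 4 of the 21 genes whose call against GFP was lost under at least 1 of 20 alternatives. Without R175H replicate 2 their adjusted p-values were 0.068 for ALDOA, 0.077 for PKM, 0.13 for ENO1 and 0.38 for PGAM1, whose log2 fold change became 0.13. When only the R175H and GFP libraries were fitted they ran from 0.11 to 0.22. GAPDH had 8261 and 8385 CPM in R175H and 8049.8 and 7601 CPM in GFP, a log2 difference of 0.09 ± 0.05 that was not called. TPI1, the triosephosphate isomerase, had 854 and 921 CPM in R175H and 852 and 738 CPM in GFP, so the lower R175H and the higher GFP library were nearly equal, and it was not called. Both GAPDH and TPI1 were called higher without GFP replicate 1 and with the length trend removed. ENO3, the muscle enolase, had at most 8.94 CPM in any library.

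**Figure D2:**
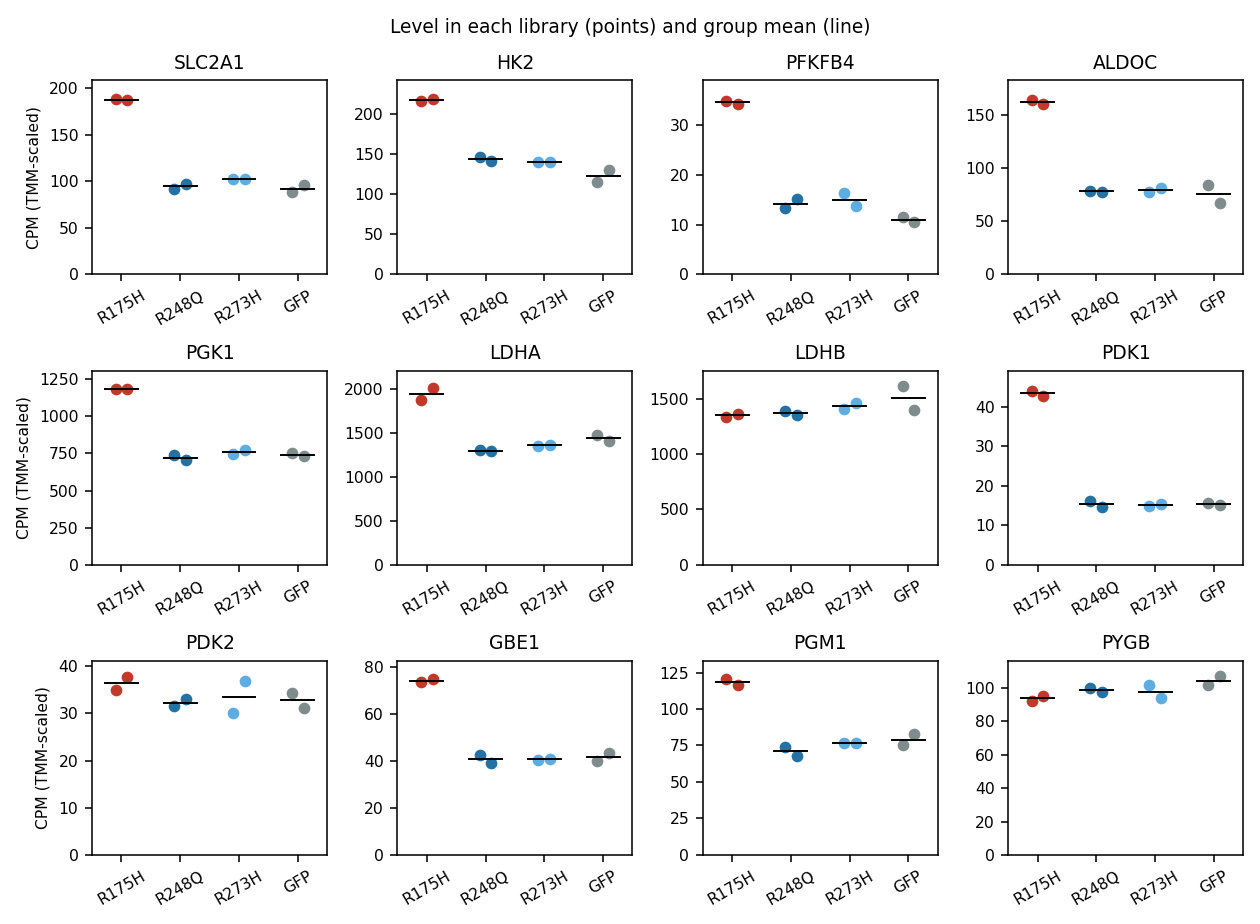
CPM of 12 of the 38 genes in each library, with the groups in the order R175H, R248Q, R273H and GFP and each point 1 library. SLC2A1, HK2, PFKFB4, ALDOC, PGK1, LDHA, PDK1, GBE1 and PGM1 have both R175H libraries above the other 6, whereas LDHB, PDK2 and PYGB do not.

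At the branch point of pyruvate, 1 of the 2 lactate dehydrogenase genes was called. LDHA, the muscle-type subunit, had 1876 and 2009 CPM in R175H, 1300.4 and 1288 in R248Q, 1356 and 1359 in R273H, and 1471 and 1409.6 in GFP. R175H was highest and R248Q lowest, with a log2 fold change of 0.43 ± 0.05 in R175H against GFP. LDHB, the heart-type subunit, had 1341 and 1368 CPM in R175H against 1614 and 1401 CPM in GFP, a log2 difference of -0.15 ± 0.06 that was not called (adjusted p = 0.11). It was called lower under 4 of 20 alternatives, at -0.25 without GFP replicate 2, -0.15 with no filter beyond 1 count, and -0.12 and -0.11 with the length trend removed by median and by longest transcripts. Per kilobase, LDHA made up 52.7% ± 0.86 of the LDHA and LDHB sum in R175H and 42.7% ± 1.7 in GFP (SD, n = 2), when median transcript lengths were used. With the longest transcripts these shares were 47.7% and 37.9%, so which subunit was the more abundant in R175H depended on the length chosen, while the difference between the groups did not.

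The pyruvate dehydrogenase kinases, which phosphorylate and inhibit the complex, gave 2 calls among 3 genes. PDK1 had 44.1 and 42.8 CPM in R175H, 16.3 and 14.6 in R248Q, 14.8 and 15.5 in R273H, and 15.6 and 15.2 in GFP. Both R175H libraries were far above a common level shared by the other 3 groups, where log2 differences from GFP were 0.00 ± 0.11 in R248Q and -0.02 ± 0.11 in R273H. PDK3 had 15.3 and 17.0 CPM in R175H, 11.0 and 11.4 in R248Q, 11.1 and 8.96 in R273H, and 8.43 and 8.21 in GFP. It rose in R175H by 0.97 ± 0.15 on the log2 scale, and the other mutants lay between R175H and GFP without passing the test. PDK2 had 35.0 and 37.7 CPM in R175H and 34.3 and 31.2 CPM in GFP, and was not called (adjusted p = 0.40). The per-kilobase sum of the 3 kinases was 1.66-fold higher in R175H than in GFP with median lengths and 1.48-fold higher with the longest.

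None of the 6 genes that carry pyruvate into mitochondria or oxidise it there was called in R175H against GFP, with 0 higher and 0 lower. These were the carrier subunits MPC1 and MPC2, the complex subunits PDHA1, PDHB and DLAT, and the activating phosphatase PDP1. Their log2 differences ran from -0.28 to 0.11 with a median of -0.04. The lowest was MPC1, at 27.1 and 22.4 CPM in R175H and 30.8 and 28.8 CPM in GFP (adjusted p = 0.13), and without GFP replicate 2 it was called lower, at -0.33 (adjusted p = 0.041). In the analysis of all libraries the 6 were also uncalled in each of the other 5 comparisons. An absent call does not show that the levels were equal: the SE of these differences ran up to 0.18, for PDP1.

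Among the glycogen genes 3 of 6 rose in R175H. GBE1, which branches glycogen chains, had 73.8 and 74.9 CPM in R175H, 42.6 and 39.3 in R248Q, 40.7 and 41.1 in R273H, and 40.3 and 43.5 in GFP. PGM1, which moves glucose phosphate between glycolysis and glycogen, had 121 and 116 CPM in R175H, 73.9 and 68.1 in R248Q, 76.5 and 76.5 in R273H, and 75.0 and 82.8 in GFP. In both genes the R175H libraries lay above the other 6, with log2 fold changes against GFP of 0.83 ± 0.08 for GBE1 and 0.59 ± 0.07 for PGM1. For PGM1 both R248Q libraries were below those of R273H and GFP, with an uncalled log2 difference of -0.15 ± 0.07 from GFP (adjusted p = 0.23). GYS1, the muscle-type glycogen synthase, rose by 0.42 ± 0.06. UGP2, which makes the UDP-glucose that the synthase uses, had a log2 difference of -0.16 ± 0.08 and was not called. Of the phosphorylases that break glycogen down, liver-type PYGL stood at 0.17 ± 0.06 and brain-type PYGB at -0.15 ± 0.07, both not called. With the length trend removed, PYGL was called higher and PYGB lower, and UGP2 was called lower without GFP replicate 2.

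In R248Q cells the 2 calls were both hexokinases and ran in opposite directions. HK1 had 48.9 and 49.6 CPM in R248Q against 62.3 and 64.2 CPM in GFP, and fell by 0.36 ± 0.07 on the log2 scale (adjusted p = 6.1e-03). HK2 was 0.23 ± 0.07 higher (adjusted p = 0.049), and this call was lost under 14 of 20 alternatives; its log2 difference was 0.14 without GFP replicate 1 and 0.07 with the length trend removed. The HK1 call was lost when either R248Q library was left out (adjusted p of 0.11 without replicate 1 and 0.082 without replicate 2). In R273H, HK1 had 54.6 and 56.9 CPM, between R248Q and GFP, with a log2 difference of -0.18 ± 0.07 (adjusted p = 0.29). Without GFP replicate 2 the lower calls became 11 in R248Q and 6 in R273H, the higher calls became 2 and 4, and R175H had 3 lower calls against GFP. In that fit 11.9% of all genes tested were called lower in R248Q, 6.88% in R273H and 11.4% in R175H, and 13.6% and 9.8% were called higher in R248Q and R273H. In the analysis of all libraries the median log2 difference of the 38 genes from GFP was -0.03 in R248Q and 0.02 in R273H. Without GFP replicate 2 these medians were -0.07 and -0.02.

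Set against the other mutants, R175H was higher for 24 of the 38 genes than R248Q, where 3.95% of all genes tested were called higher, and for 21 than R273H, where 2.22% were. None was lower in either comparison (edgeR, also 0 at an unadjusted p below 0.05, and 0 by DESeq2 and limma-voom), where 3.22% and 1.41% of all genes were called lower. The median log2 difference was 0.36 against R248Q and 0.30 against R273H. PDK1 led both, at 1.49 ± 0.10 against R248Q and 1.52 ± 0.10 against R273H, followed by PFKFB4 at 1.28 ± 0.11 and 1.20 ± 0.11. Against R273H the median of the 38 genes was 0.25 without R175H replicate 2 and 0.31 without R273H replicate 2. Fewer genes were called higher against R273H in both of these fits, among the 38 and over all genes tested.

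HK1 was called in R175H against both other mutants, at 0.45 ± 0.07 over R248Q and 0.27 ± 0.07 over R273H, although not against GFP. The HK1 call over R273H was lost with DESeq2 (adjusted p = 0.25) and when any 1 mutant library was left out. TPI1, PGAM1 and PYGL were called against R248Q, at 0.36, 0.33 and 0.26, and had adjusted p-values of 0.052, 0.092 and 0.20 against R273H. These 3 calls were lost when either R248Q library was left out, and without R175H replicate 2. R248Q and R273H differed from each other for 0 of the 38 genes, where 0.144% of all genes tested were called higher and 0.00757% lower. At an unadjusted p below 0.05 edgeR gave 0 higher and 2 lower genes between them, and DESeq2 and limma-voom called 0. In CPM, both R175H libraries lay above all 6 others for 25 of the 38 genes and below them for 0, against 12.9% and 10.9% of all genes tested.

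**Figure D3:**
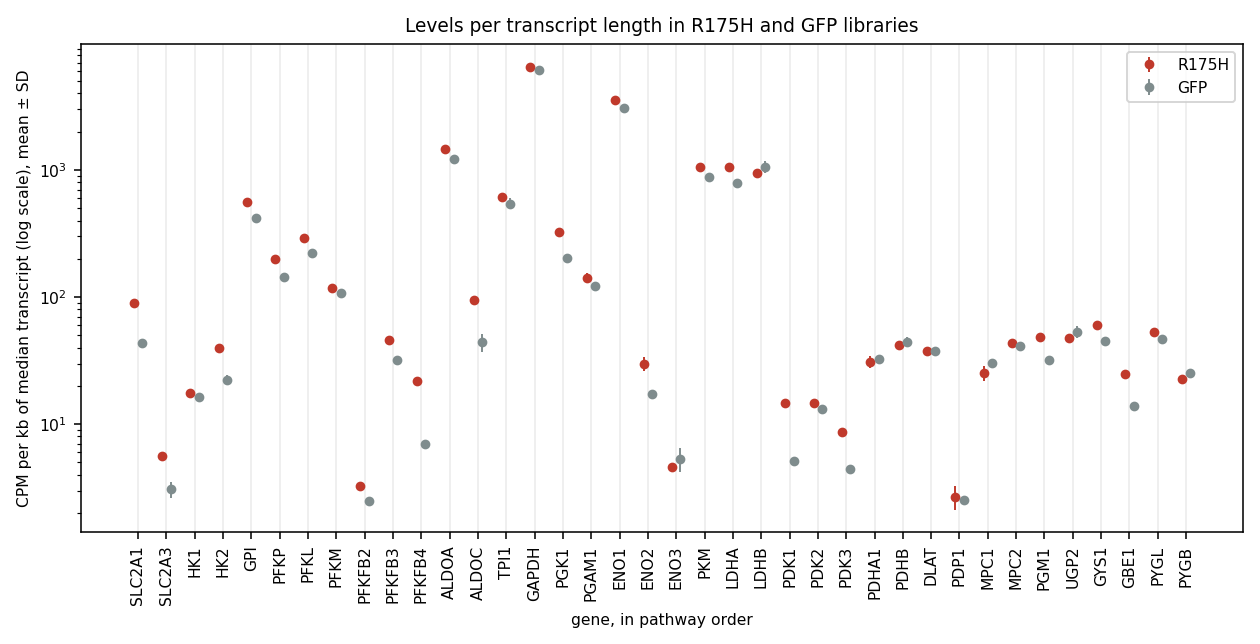
Mean CPM per kilobase of median transcript length for the 38 genes on a log axis, with the SD of 2 libraries, and R175H left of GFP. In GFP cells GAPDH is the highest at 6118 and PFKFB2 the lowest at 2.48, whereas with the longest transcripts PDK1 is the lowest at 1.09.

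Within families, 13 ratios of isoenzymes were compared on the log2 scale of counts in the same library, where scaling cancels. PDK1 over PDK2 was 0.26 ± 0.11 in R175H, -1.07 ± 0.16 in R248Q, -1.13 ± 0.17 in R273H and -1.09 ± 0.07 in GFP (SD, n = 2). PFKFB4 over PFKFB2 was 1.00 ± 0.10 in R175H and -0.25 ± 0.17 in GFP, and ALDOC over ALDOA was -3.81 ± 0.10 in R175H and -4.64 ± 0.17 in GFP. LDHA over LDHB was 0.52 ± 0.05 in R175H and lay between -0.13 and 0.01 in the other 6 libraries. In each of these 4 families the R175H libraries stood apart toward the first-named isoenzyme.

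In 12 of the 13 ratios both R175H libraries lay outside the range of the other 6. How often other gene pairs do so was not counted, and some of the 13 pairs share a gene. For single genes, both R175H libraries lay above the other 6 in 12.9% and below in 10.9% of all genes tested. In 10 of them they lay above. SLC2A3 over SLC2A1 and PFKM over PFKL lay below, and ENO3 over ENO1 overlapped. Some gaps were small: SLC2A3 over SLC2A1 was -3.07 and -3.14 in R175H, and its lowest value in the other 6 was -3.03. PFKP over PFKL in R175H differed from GFP by 0.08. HK2 over HK1 stood at 1.70 ± 0.03 in R175H, 1.54 ± 0.06 in R248Q, 1.33 ± 0.04 in R273H and 0.95 ± 0.10 in GFP. No 2 of its groups overlapped. The median transcripts of HK2 and HK1 have 5525 and 3851.5 bases, so a length trend need not cancel in this ratio. GFP replicate 1 gave its lowest value, 0.88, and no ratio was run with the length trend removed. For HK2 over HK1 the exact permutation p over the 4 groups was 0.00952, the smallest these 8 libraries can give. After adjustment over the 13 ratios its p was 0.124, and 0 ratios passed an adjusted 0.05 (4 had an unadjusted exact p below 0.05). A lone ratio at the smallest exact p cannot pass this adjustment. The test over 4 groups can also miss a shift of R175H alone. LDHA over LDHB, whose R175H libraries lay above the other 6, had an exact p of 0.143. The count of 0 therefore does not show that the ratios were alike. Set against the other 6 libraries together, R175H gave an exact two-sided p of 0.0357 in 9 ratios, the smallest possible, and 0.0516 after adjustment.

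**Figure D4:**
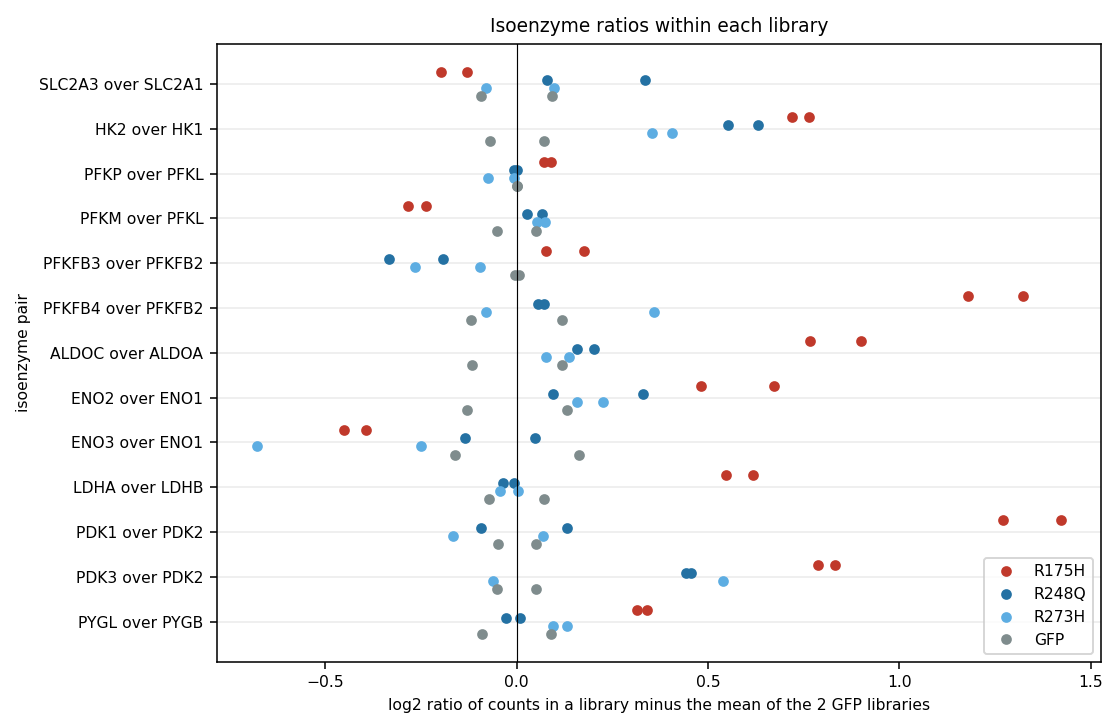
Log2 ratio of counts of 2 isoenzymes in each library, minus the mean of the GFP libraries, for 13 pairs, with the groups drawn in the order R175H, R248Q, R273H and GFP. R175H means lie 1.35 above GFP for PDK1 over PDK2 and 1.25 above for PFKFB4 over PFKFB2, and 0.26 below for PFKM over PFKL.

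Other genes of the same pathways were taken from lists that were drawn up with earlier results of these data known. Apart from HIF1A, the genes named from them were called in R175H against GFP. Over all genes tested in that comparison, 6.39% were called higher and 4.59% lower. The calls of these genes were not followed through the alternatives. Of 5 further glycolysis genes tested, 0 rose in R175H against GFP and 1 fell: C12orf5 (TIGAR), a phosphatase that lowers the activator of phosphofructokinase, had 27.6 and 26.0 CPM in R175H against 35.7 and 36.3 CPM in GFP. Of 7 further pyruvate genes 1 rose and 0 fell. That gene was GPT2, a mitochondrial alanine transaminase, whose log2 fold change against GFP was 0.62 ± 0.06 for R175H, 0.25 ± 0.06 for R248Q and 0.40 ± 0.06 for R273H, each called. Of 20 further glycogen genes 2 rose and 0 fell, too few to set apart from the share over all genes. They were PPP1R3C (0.70 ± 0.19) and PPP1R3E (0.85 ± 0.20), which target protein phosphatase to glycogen. PPP1R3C had 11.1 and 8.19 CPM in R175H and 5.76 and 5.88 CPM in GFP. PPP1R3E had 16.7 and 12.3 CPM in R175H and 9.66 and 6.10 CPM in GFP.

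Of 13 genes of the pentose phosphate pathway and gluconeogenesis, 2 rose and 0 fell in R175H. PCK2, the mitochondrial phosphoenolpyruvate carboxykinase, had 214 and 232 CPM in R175H against 138 and 126 CPM in GFP. With 159.7 and 144 CPM in R248Q and 171 and 177 CPM in R273H, every mutant library exceeded both GFP libraries. H6PD, the hexose phosphate dehydrogenase of the endoplasmic reticulum, rose by 0.39 ± 0.11. It had 83.2 and 81.1 CPM in R175H, 78.1 and 80.5 in R248Q, 75.0 and 76.3 in R273H, and 52.1 and 73.6 in GFP. The median H6PD transcript has 7368 bases, and long transcripts read low in GFP replicate 1, the lower library. The part of this in the H6PD rise was not tested. Of 9 other sugar and lactate transporters 2 rose and 0 fell: SLC16A1 (MCT1), which carries lactate and pyruvate, by 0.27 ± 0.06, and SLC2A4 (GLUT4), the insulin-responsive glucose carrier, by 0.69 ± 0.20. Of 10 regulators in a hypoxia list 4 rose and 1 fell. EGLN1 and EGLN3, oxygen-sensing hydroxylases that mark the hypoxia-inducible factor for destruction, rose by 0.88 ± 0.07 and 0.62 ± 0.10. ARNT, the factor's partner subunit, rose by 0.41 ± 0.08. It had 80.7 and 80.0 CPM in R175H, 70.0 and 72.0 in R248Q, 68.5 and 70.2 in R273H, and 56.9 and 64.1 in GFP. HIF1A itself differed by 0.04 ± 0.07 and was not called. TXNIP, which limits glucose uptake, was the gene that fell. It had 6.20 and 6.95 CPM in R175H, 21.5 and 21.4 in R248Q, 22.8 and 20.1 in R273H, and 32.6 and 30.6 in GFP. Every mutant library thus lay below both GFP libraries, with R175H lowest.

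Reads of near-identical copies limit some of these values. Named pseudogenes exist for 12 of the 38 genes, with 62 for GAPDH and 13 for PGAM1, and 9 genes have exons that overlap another gene of the table. SLC2A1 and ENO1 overlap a named antisense gene, and PFKM, TPI1, PDK2, PDHA1, DLAT and MPC2 overlap another gene on the opposite strand. Since the strand setting is not given in the sources used here, reads of these pairs cannot be told apart where they overlap. PGK1 overlaps ATP7A on the same strand, which a strand setting would not resolve.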

How the data were processed

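mRNA libraries of HGC27 cells overexpressing R175H, R248Q, R273H or GFP were analysed, 2 per group. The deposited file holds whole-number read counts for each gene, not normalized. Per the submitters' processing notes the authors used bcl2fastq and STAR 2.5 with hg19; how reads were assigned to genes, with which annotation and strand setting, is not given in the sources used here.

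Counts were analysed with edgeR 4.0.16 in R 4.3.3. Genes were kept by filterByExpr (minimum count 10, minimum total 15), scaled by TMM and fitted by quasi-likelihood with a mean per group over all 8 libraries (4 residual degrees of freedom). The SE is the absolute log2 fold change over the square root of F. P-values were adjusted by Benjamini-Hochberg over 13213 genes and called below 0.05. CPM values are TMM-scaled. A floor of 3 counts was 0.256 to 0.443 CPM, and all 38 genes lay above it. Precision covers counting error and the spread between libraries of a group only. That spread was estimated over all 4 groups together and moderated across genes, although GFP replicates were further apart than those of the mutants. Isoenzyme ratios were tested by an exact permutation test over libraries, two-sided.

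Lengths came from GENCODE 29, matched by symbol for 97.4% of tested genes, as the median (or, alternatively, longest) protein-coding transcript. Promoters came from RefSeq, GRCh38.p14. Named genes were all 38 listed genes, and from each other list up to 4 called genes with the lowest p in R175H against GFP. HIF1A, which was not called, and the cell type markers KRT8, VIM and SPARC were named outside this rule. Results for 1 gene that the rule also named are not reported here. The genes, lists and tests were chosen with earlier results of these data known. Scripts were tested on simulated data. Alternatives were other scalings and filters, DESeq2 1.42.0, limma-voom 3.58.1, a minimum log2 fold change of 0.5, only the groups compared, a replicate block, a length correction and leaving out each library. Those with the longest transcript, with length and GFP replicate 1 together, with crossed numbers, and R175H against the other 6 in ratios were chosen after seeing the data.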

Additional observations from a re-analysis of the deposited data

How the results depend on the processing

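Of the genes called in the main analysis, 17 of 21 for R175H against GFP, 17 of 24 for R175H against R248Q, 13 of 21 for R175H against R273H and 0 of 2 for R248Q against GFP kept their call in all 20 alternatives other than a fold minimum, and 0 changed direction. A log2 fold change of at least 0.5 left 12 genes higher in R175H against GFP, 12 against R248Q and 12 against R273H, and 0 in either direction for R248Q against GFP. With no filter beyond 1 count, R175H and R273H against GFP gave 1 lower and 1 higher gene, and R248Q against GFP 5 lower. Removing the length trend gave 2 lower genes in R175H and 2 in R248Q against GFP and 1 higher in R273H, with median or longest transcripts alike; together with leaving out GFP replicate 1 it gave 1 lower in R175H against GFP, R248Q and R273H each, 2 lower in R248Q against GFP, and 1 lower in R248Q against R273H. The 1 higher gene in R248Q against GFP became 0 with library size alone, with DESeq2 and when only the groups compared were fitted, a fit that also gave 5 lower genes in R248Q against R273H. With a replicate block the counts higher in R175H were 20 against GFP, 24 against R248Q and 19 against R273H. In R248Q against GFP they were 0 higher and 1 lower. Correlations between same-numbered libraries ran from -0.244 to 0.0726, which shows no strong effect shared by number. Whether libraries were prepared in pairs is not given by the labels. Crossing the GFP numbers gave 5 lower in R248Q against GFP. Leaving out 1 library at a time gave, against GFP, 17 to 24 higher and 0 to 3 lower in R175H, 0 to 2 higher and 0 to 11 lower in R248Q, and 0 to 4 higher and 0 to 6 lower in R273H. It gave 17 to 26 higher in R175H against R248Q, 13 to 24 against R273H, 0 to 1 lower in R248Q against R273H, and 0 to 3 isoenzyme ratios past the threshold, the 3 without GFP replicate 1. The cause of these changes was not tested.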
